A study of Mus musculus with 9 samples.

Results

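The H3K4me3 regions of 3 mouse pancreatic cancer cell lines were compared on autosomes 1 to 19: a female line without Kdm6a (female KO), a male line without Kdm6a (male KO) and a male line that has the gene (male WT). Every row of the 3 deposited H3K4me3 lists that lies on an autosome was used, which gave 45399 of the 46939 H3K4me3 regions. The series as a whole holds 185632 regions over 3 marks. The female KO list held 13574 regions, the male KO list 16358 and the male WT list 15467. Width and read density were described in 5 width classes, from narrow regions under 2 kb to broad regions of 10 kb or more, and each KO list was set against the WT list.

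The series profiled H3K4me3, H3K27me3 and H3K27ac by chromatin immunoprecipitation and sequencing (ChIP-seq) in these lines, 9 libraries in all. Per the labels, the lines came from pancreas, all had a mixed C57BL/6-SV129 background, all were cultured in F12/DMEM medium to which EGF was added, and none was treated. The sources used here do not give the Kdm6a allele, the promoter of any Cre or the age of the animals. Each genotype and sex was 1 line with 1 library per mark, so there is no replicate spread, no p-value was computed, and line and genotype cannot be told apart. No female WT line was among the samples, so sex and genotype cannot be told apart in the female comparison. Both comparisons use the same WT list, so a feature of that library enters both.

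Kdm6a, also called UTX, is an X-linked gene whose protein removes methyl groups from H3K27me3, the Polycomb mark of silent genes. The protein is also a subunit of the MLL3 and MLL4 (COMPASS-like) complexes, which methylate lysine 4 of the same histone mainly at enhancers. H3K4me3 marks promoters. It is known to form narrow peaks at weakly transcribed or poised promoters and broad domains over highly expressed genes, among them genes of cell identity, while H3K27ac marks active promoters and enhancers. Promoters that carry H3K4me3 and H3K27me3 together are called bivalent. No gene annotation of the build of the files was used here, so regions are named by mm9 position, and the deletion of Kdm6a itself was not checked.

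The regions were widest in female KO cells and narrowest in male KO cells, with WT between them. The median width was 6.2 kb in female KO cells, 4.0 kb in male KO cells and 5.0 kb in WT cells. The widest 10% began at 11.2 kb in female KO cells, 7.0 kb in male KO cells and 8.8 kb in WT cells. Regions of 20 kb or more numbered 223 in female KO cells, 13 in male KO cells and 57 in WT cells. The single widest region spanned 65.8 kb in female KO cells, 41.4 kb in male KO cells and 48.0 kb in WT cells. The female KO list therefore covered 90.03 Mb with the fewest regions, and the male KO list 67.6 Mb with the most, against 79.8 Mb in WT.

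The lists also differed in reads, and in the same order. The regions held 15873829 reads in female KO cells, 7309295 in male KO cells and 12587726 in WT cells, sums that grow with the called length and are not the depth of a library. The lowest count of any region was 15 reads in female KO cells, 10 in male KO cells and 13 in WT cells. A caller joins more windows where a library has more reads, and the part of read number in the order of widths was not tested.

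Broad regions made up 15.7% of the female KO list (95% Wilson interval 15.1 to 16.3%), 2.34% of the male KO list (2.12 to 2.58%) and 6.21% of the WT list (5.84 to 6.60%). These were 2129, 382 and 960 regions, 9.48 percentage points above WT in female KO cells and 3.87 points below WT in male KO cells. These and all other intervals cover counting error only, with each region taken as independent. Narrow regions took the opposite order, with 11.4% of the female KO list, 17.7% of the male KO list and 14.2% of the WT list. The most frequent class was 6 to 10 kb in female KO cells, with 37.7% of regions, and in WT, with 29.3%. For male KO cells it was 2 to 4 kb, with 32.1%, just ahead of 4 to 6 kb, with 32.0%.

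Most reads lay in wide regions in all 3 lines. Broad regions held 38.3% of the reads in female KO cells, 8.43% in male KO cells and 18.7% in WT cells, on 33.4, 7.16 and 15.9% of the covered length. Narrow regions held 0.62% of the reads in female KO cells, 1.89% in male KO cells and 1.001% in WT cells. A median narrow region rested on 55 reads in female KO cells, 40 in male KO cells and 49 in WT, and a median broad region on 2502, 1547 and 2307 reads. Values for narrow regions are thus the least precise.

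**Figure D1:**
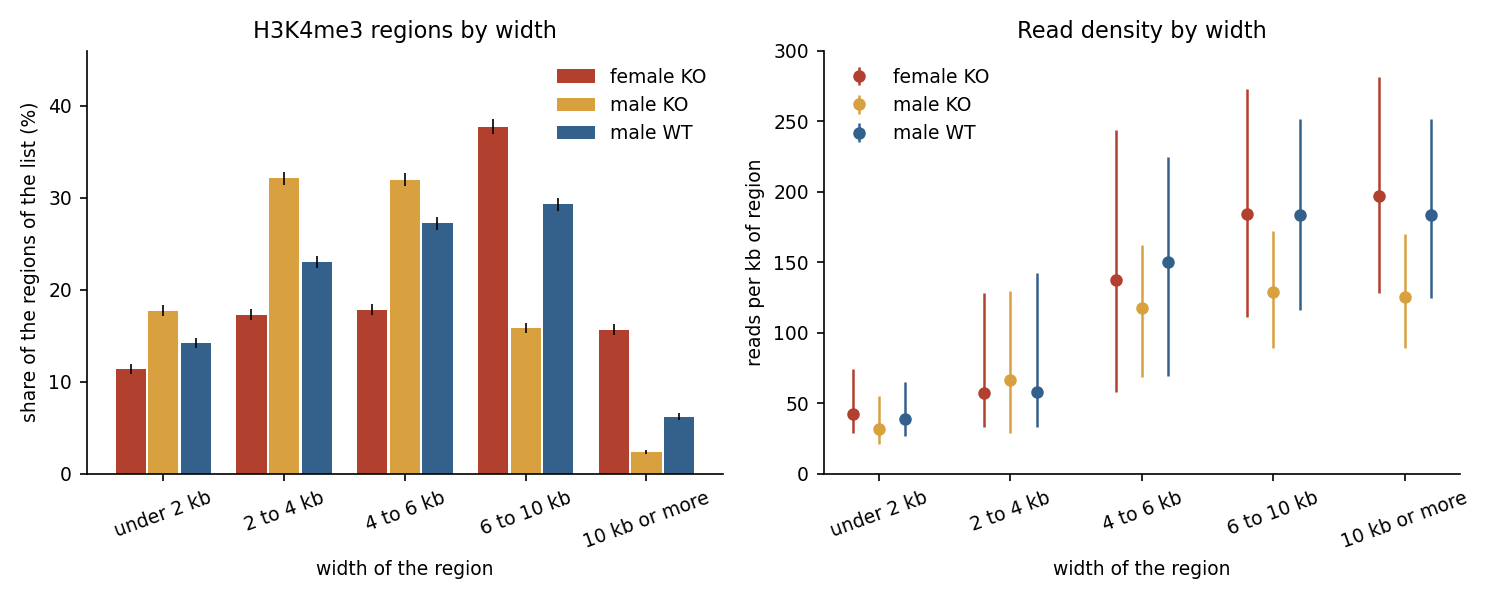
Left, the share of regions in each width class for the female KO, male KO and male WT lists, with 95% Wilson intervals as bars. Right, the median reads per kb of the regions in each class, with bars from the 10th to the 90th percentile. The female KO list has its tallest bar at 6 to 10 kb (37.7%), and density levels off from 6 kb upward in all 3 lists.

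Read density grew with width and then levelled off, in all 3 lists. In female KO cells the median was 42.1 reads per kb in narrow regions, 57.1 at 2 to 4 kb, 137 at 4 to 6 kb, 184 at 6 to 10 kb and 197 in broad regions. The same classes in male KO cells had 31.7, 66.8, 117, 129 and 125 reads per kb. In WT they had 39.0, 58.2, 150, 183 and 184 reads per kb. The step from 6 to 10 kb to broad regions was a factor of 1.07 in female KO cells, 0.971 in male KO cells and 1.002 in WT, while the step from narrow to broad was 4.67, 3.95 and 4.71 times. Broad regions thus differed from those of 6 to 10 kb in length far more than in density.

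Density in male KO cells reached its plateau at shorter widths. At 2 to 4 kb the median density was 0.722 of the list median in male KO cells, against 0.440 in WT, and at 4 to 6 kb it was 1.27 times the list median, against 1.14 times in WT. Those of female KO cells were 0.389 and 0.935 of the list median. Few narrow regions were dense anywhere: 1.35% of them lay above the median density of their own list in female KO cells, 1.86% in male KO cells and 1.04% in WT. Broad regions did so in 80.5% of cases in female KO cells, 87.2% in male KO cells and 87.1% in WT. Across regions the Spearman correlation of width and density was 0.681 in female KO cells, 0.722 in male KO cells and 0.733 in WT cells, given as a description, since both values come from the same region of 1 library.

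The 3 densest narrow loci show the exceptions. At chr8:4087201-4087800, a locus 0.6 kb wide in every list, female KO cells had 567 reads per kb, male KO cells 207 and WT 462, on 340, 124 and 277 reads. The locus at chr12:8646801-8648600, 1.8 kb wide in every list, had 315 reads per kb in female KO cells, 145 in male KO cells and 269 in WT. The locus at chr13:74631001-74632800 had 208 reads per kb in female KO cells, 124 in male KO cells and 244 in WT. All 3 loci overlapped H3K27ac regions in every line and H3K27me3 regions in none.

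Whether a region had a partner in the other list differed by width. Of the female KO regions, 10.5% had no WT partner (an overlap of at least 1 bp), and of the male KO regions 15.5%. Of the WT regions, 17.9% had no female KO partner and 13.2% no male KO partner. Almost all broad regions had one: 99.5% of the broad female KO regions and 100% of the 382 broad male KO regions met a WT region. In the other direction, 98.5% of the broad WT regions met a female KO region and 99.6% a male KO region. Of the narrow regions, 55.5% in female KO cells (53.0 to 58.0%) and 49.98% in male KO cells (48.2 to 51.8%) met a WT region. Of the narrow WT regions, 42.4% met a female KO region (40.4 to 44.5%) and 53.1% a male KO region (51.0 to 55.2%).

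The difference between broad and narrow WT regions was 56.1 points for a female KO partner (Newcombe 95% interval 53.8 to 58.2) and 46.5 points for a male KO partner (44.3 to 48.6). Without the 25% of regions with the lowest counts in each list the male value was 23.0 points. Regions under 4 kb were 37.3% of the WT list, but 87.5% of the WT regions without a female KO partner and 90.8% of those without a male KO partner. Regions without a partner were sparse as well as short. Their median density was 40.7 reads per kb in female KO cells and 33.6 in male KO cells. WT regions without a partner had 39.2 reads per kb for the female comparison and 36.2 for the male. Their median counts were 77 reads in female KO cells and 56 in male KO cells, and in WT 78 for the female comparison and 67 for the male. At this depth a region missing from a list is not shown to be absent from the cells.

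**Figure D2:**
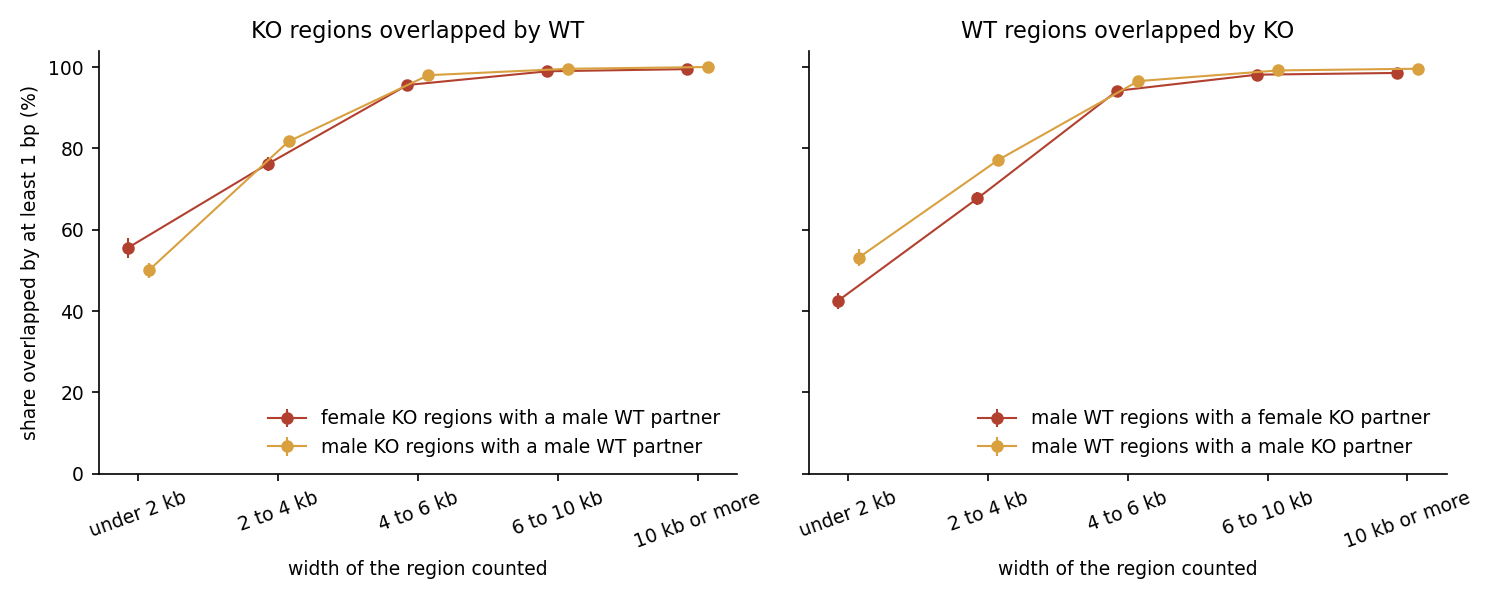
Left, the share of female KO and male KO regions that a WT region overlaps, by width of the KO region. Right, the share of WT regions that a region of each KO list overlaps, by width of the WT region; bars are 95% Wilson intervals. All 4 lines climb to between 94.2 and 98.0% at 4 to 6 kb, from 42.4 to 55.5% in narrow regions.

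Overlapped WT regions of 4 to 6 kb and of 6 to 10 kb changed width class in opposite directions in the KO lines. At 4 to 6 kb, 56.1% met a wider class in female KO cells and 5.5% in male KO cells. Only a narrower class was met by 10.5% and 39.4%. Of the WT regions of 6 to 10 kb with a female KO partner, 29.4% met a broad female KO region and 7.81% only a narrower class. Of those with a male KO partner, 1.14% met a broad male KO region and 58.3% only a narrower class. Of the broad WT regions with a partner, 84.9% met a broad region in female KO cells and 34.4% in male KO cells. Broad regions can move only to a narrower class, and narrow regions only to a wider one. Narrow WT regions with a partner met a wider class in 56.0% of cases in female KO cells and 43.4% in male KO cells. At 2 to 4 kb, 13.8% met a wider and 19.25% only a narrower class in male KO cells, against 44.15% and 13.4% in female KO cells. Some wide regions met several regions of the other list: 30.9% of the broad WT regions met 2 or more male KO regions (28.1 to 33.9%), and 5% met 2 or more female KO regions (3.79 to 6.57%). Conversely, 22.6% of the broad female KO regions met 2 or more WT regions, while 8.12% of the broad male KO regions did.

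To compare the same loci in all lines, the 3 lists were merged into 18007 loci. All 3 lists were present at 11646 of these, and 10440 held exactly 1 region of each list. Those 10440 matched loci are used below, classed by the mean of their 3 widths. A locus too weak to be called in 1 line is not among them, which bears most on the 497 narrow matched loci. The other classes held 2136 loci at 2 to 4 kb, 3428 at 4 to 6 kb, 3938 at 6 to 10 kb and 441 broad loci. A locus where any list holds 2 or more regions is left out too, which bears most on broad regions. Of the broad WT regions 30.9% met 2 or more male KO regions, and of the broad female KO regions 22.6% met 2 or more WT regions.

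At matched loci the female KO regions were wider than WT and the male KO regions narrower. The median width was 6.6 kb in female KO cells and 4.4 kb in male KO cells, against 5.4 kb in WT. The female KO region was the wider one at 70.0% of loci and the narrower one at 24.3%, with a median log2 width ratio of 0.21. The male KO region was wider at 18.7% and narrower at 75.2%, with a median log2 ratio of -0.25. Both borders moved: the female KO region reached past the WT region on both sides at 41.5% of loci, and the male KO region lay inside the WT region on both sides at 46.4%. Narrow loci were the exception, with a median log2 width ratio of 0.00 in both comparisons. From 4 kb upward the class medians were between 0.21 and 0.27 in the female comparison and between -0.28 and -0.19 in the male.

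Changes of width by 2 times or more were few at matched loci. Loci where any list holds 2 or more regions are not in these counts. The female KO region was at least 2 times wider at 461 loci (4.42%) and at least 2 times narrower at 262 (2.51%). The male KO region was at least 2 times wider at 163 loci (1.56%) and at least 2 times narrower at 394 (3.77%). At the 441 broad loci, 8 were at least 2 times wider and 1 narrower in female KO cells, and 0 were wider and 7 narrower in male KO cells.

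Density at matched loci was close to WT in female KO cells and lower in male KO cells. The median locus had 160 reads per kb in female KO cells and 110 in male KO cells, against 156 in WT, or log2 ratios of 0.05 and -0.52. The part of library depth in these medians was not tested. Ratios are given from here on after subtraction of the median of the comparison (centred). In female KO cells the centred log2 ratio was -0.10 in narrow loci, -0.08 at 2 to 4 kb, 0.00 at 4 to 6 kb, 0.02 at 6 to 10 kb and 0.14 in broad loci. The same classes in male KO cells had 0.19, 0.16, 0.00, -0.04 and -0.11. Broad minus narrow was 0.24 in female KO cells and -0.30 in male KO cells. The male value did not keep its sign: it was 0.04 when the 25% of regions with the lowest counts was left out of each list, where 10 narrow matched loci remained.

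Single loci varied more than these class medians. The standard deviation of the log2 density ratio over all matched loci was 0.449 in the female comparison and 0.433 in the male, against a median counting error of 0.0660 and 0.0816. In narrow loci the counting error was larger, 0.241 and 0.253, beside standard deviations of 0.496 and 0.587. Past a centred change of 2-fold, female KO cells had 158 denser loci (1.51%) and 245 sparser loci (2.35%). Male KO cells had 353 denser loci (3.38%) and 55 sparser loci (0.527%). Without the 25% of regions with the lowest counts, these numbers were 73 and 80 in female KO cells and 113 and 24 in male KO cells. Loci under 4 kb made up most of the denser ones in male KO cells, with 51 narrow loci (10.3% of that class) and 207 at 2 to 4 kb (9.69%), against 2 broad loci (0.45%). The denser loci of female KO cells held 7 narrow loci (1.41%), 79 at 2 to 4 kb (3.70%) and 4 broad loci (0.91%). Their sparser loci held 19 narrow loci (3.82%), 111 at 2 to 4 kb (5.20%) and 1 broad locus (0.23%).

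**Figure D3:**
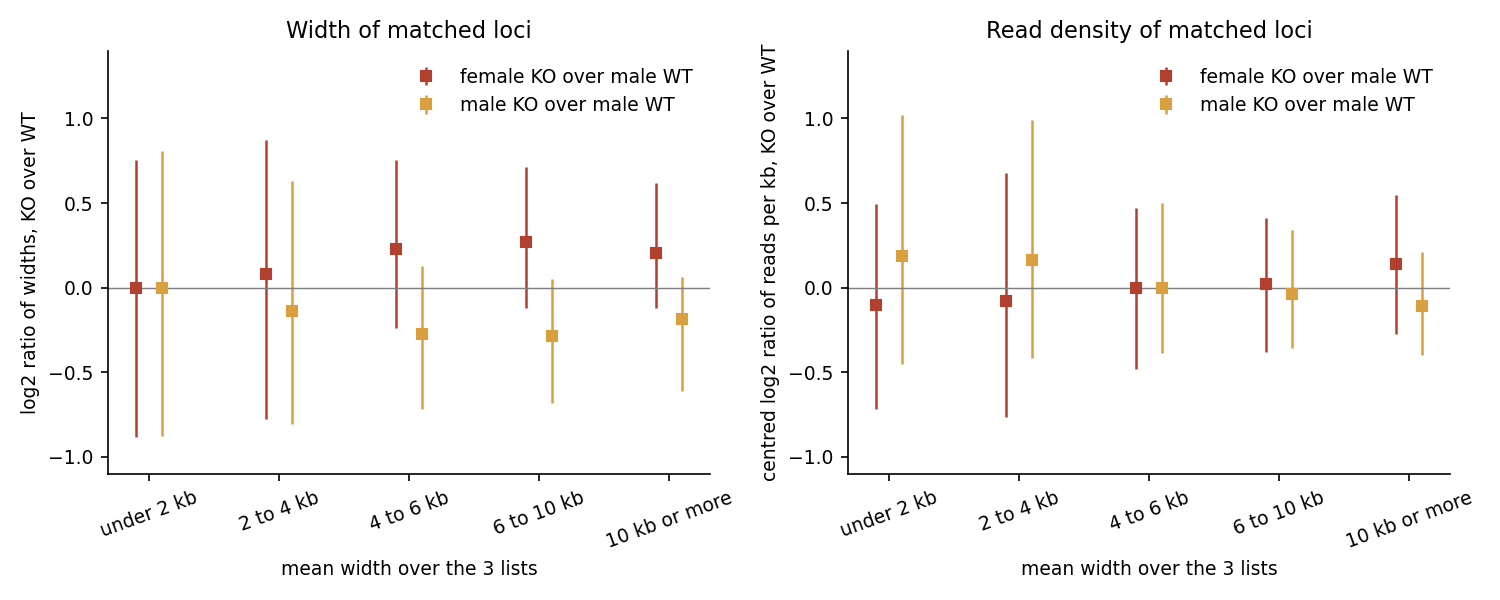
Median log2 ratio of width (left) and centred median log2 ratio of reads per kb (right) at matched loci, female KO over WT and male KO over WT, by mean width over the 3 lists. Bars run from the 10th to the 90th percentile of loci. Width ratios are 0.00 in narrow loci and have opposite signs from 2 kb upward, and the density ratios of the KO lines cross at 4 to 6 kb.

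The ranking of loci by width held less well than that by reads. Among the 1044 widest matched loci of each list, 58.5% were shared by female KO and WT, 65.3% by male KO and WT, and 55.7% by the KO lines. Among the loci with the most reads, 69.2% were shared by female KO and WT, 73.3% by male KO and WT, and 72.3% by the KO lines. For density the shares were 53.5% for female KO and WT, 49.2% for male KO and WT, and 45.7% for the KO lines. Over all matched loci, however, density ranked more alike than width. The Spearman correlations of density were 0.843 for female KO and WT, 0.825 for male KO and WT, and 0.798 for the KO lines. Those of width were 0.801, 0.817 and 0.767. The widest 10% of matched loci began at 10.4 kb in female KO cells, 7.0 kb in male KO cells and 8.6 kb in WT cells.

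The 3 matched loci with the largest mean width were broad in every line, which a ranking by the mean of the lists favours. The widest region of each list was wider than these and lay at no matched locus. At chr2:173078601-173107200 the region spanned 28.6 kb in female KO cells, 25.6 kb in male KO cells and 27 kb in WT, with 198, 97.3 and 116 reads per kb. At chr15:76016201-76043600 the widths were 26.4, 25 and 23 kb, with 322 reads per kb in female KO cells, 165 in male KO cells and 246 in WT. At chr2:84470001-84494200 the widths were 22.8 kb in female KO cells, 22.8 kb in male KO cells and 23.4 kb in WT. H3K27ac covered at least 23.0 kb of each of these loci in every line, and H3K27me3 covered none of them.

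The largest gain in width of female KO cells was at chr6:91154401-91175000, 20.6 kb wide in female KO cells, 7.6 kb in male KO cells and 6.6 kb in WT. H3K27ac covered all 20.6 kb in both KO lines and 12.2 kb in WT. The next were chr9:107504201-107519400, 15.2 kb in female KO cells against 3.4 kb in WT, and chr10:79419601-79436600, 17.0 kb against 6.4 kb. At the locus on chromosome 10 the female KO density was lower than WT, 90.6 against 169 reads per kb. The largest gains in male KO cells were smaller. At chr4:154587601-154600800 the male KO region was 13.2 kb and the female KO region 12.8 kb, against 7.6 kb in WT. At chr15:97593801-97602600 they were 7.8 and 8.8 kb, against 3.0 kb in WT.

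The locus at chr13:83864601-83874200 combined a gain in width with a gain in density in both KO lines. Its region spanned 9.6 kb in female KO cells and 7.4 kb in male KO cells, against 2.2 kb in WT. It held 1623 reads in female KO cells and 780 in male KO cells, against 79 in WT, and its centred log2 density ratios were 2.18 (1.86 to 2.53, counting error) and 2.08 (1.74 to 2.43). WT carried H3K27me3 over 9.2 kb of the locus and no H3K27ac. The KO lines carried no H3K27me3 there, and H3K27ac over 8.2 kb in female KO cells and 5.8 kb in male KO cells.

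At a pair of loci the regions of both KO lines were far narrower than the WT region that both comparisons share. At chr1:133856201-133875000 the region spanned 7.8 kb in female KO cells and 5.2 kb in male KO cells, against 18.8 kb in WT. H3K27me3 covered 16.6 kb of it in female KO cells and 3.2 kb in male KO cells, and none in WT. H3K27ac covered 17.6 kb of it in female KO cells, 16.2 kb in male KO cells and 17.8 kb in WT. The H3K4me3 density there was 144 reads per kb in female KO cells and 114 in male KO cells, against 108 in WT. At chr7:147275201-147290200 the widths were 2.6 kb in female KO cells and 2.8 kb in male KO cells, against 15 kb in WT. H3K27ac at that locus covered 0 kb in female KO cells, 6.8 kb in male KO cells and 14 kb in WT. At chr5:93351201-93364800 the region spanned 1.6 kb on 72 reads in female KO cells and 10.8 kb on 1196 reads in male KO cells, against 13.6 kb on 2218 reads in WT. At chr17:6965201-6992600 it spanned 13.6 kb in male KO cells and 27.4 kb in female KO cells, against 26.8 kb in WT.

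The loci named for their density ratio, a rule that asked for at least 2 kb, had mean widths of 2.27 to 6.13 kb. In female KO cells the highest centred log2 ratio was 2.53 (2.25 to 2.83) at chr15:76286201-76294400, with 203 reads per kb in female KO cells and 48.0 in male KO cells, against 33.8 in WT. The next were 2.05 at chr6:29380001-29387600 and 1.91 at chr14:100680001-100687200. H3K27ac covered all 3 loci over their full length in female KO cells and none of them in WT. The lowest ratio in female KO cells was -2.66 (-2.92 to -2.42) at chr2:148228001-148235200, with 32.7 reads per kb in female KO cells and 32.8 in male KO cells, against 200 in WT. That locus was also among the 3 lowest in male KO cells, at -2.08, although H3K27ac covered its 7.2 kb in every line.

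The next lowest ratios of female KO cells lay in H3K27me3 that both KO lines carried and WT did not. At chr1:74992401-75000800 female KO cells had 40.8 reads per kb and male KO cells 66.8, against 231 in WT. At chr15:64748201-64756200 female KO cells had 61.0 and male KO cells 158, against 306 in WT. H3K27me3 covered 8.4 and 8.0 kb of these loci in female KO cells and 8.4 and 4.8 kb in male KO cells, and none in WT. The other lowest ratios of male KO cells were -2.15 at chr19:30018801-30025400 and -1.96 at chr7:152155801-152163600. At both, H3K27ac was present in every line and H3K27me3 in none.

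The 3 highest ratios of male KO cells all lay within WT H3K27me3. At chr2:10291601-10298200 male KO cells had 141 reads per kb and female KO cells 125, against 37.9 in WT, a centred log2 ratio of 2.42 in male KO cells (2.16 to 2.68). At chr1:94994001-95000400 male KO cells had 155 and female KO cells 68.4, against 49.2 in WT. At chr1:57830601-57833000 male KO cells had 174 and female KO cells 98.3, against 57.5 in WT. H3K27me3 covered 6.6, 6.4 and 2.4 kb of these loci in WT. H3K27ac covered 4.8, 4.8 and 1.4 kb of them in male KO cells and none in WT.

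Of the widest regions found in 1 list of a pair, WT held 15 kb at chr11:72278801-72293800 that neither KO list overlapped, on 469 reads or 31.3 reads per kb. WT also held 13.8 kb at chr8:128431401-128445200 that the female KO list lacked, on 1836 reads. There H3K27me3 covered all 13.8 kb in both KO lines and none in WT. WT held 12.2 kb at chr8:3407201-3419400 that neither KO list overlapped, on 472 reads. The female KO list held 17.4 kb at chr1:137737201-137754600 on 3030 reads and 16.2 kb at chr6:125088401-125104600 on 1937 reads without a WT partner. Male KO regions overlapped them over 6.2 and 2.8 kb. H3K27ac covered all 17.4 kb of the region on chromosome 1 in every line. The nearest WT region lay 2.2 kb from the region on chromosome 6, which carried H3K27ac in female KO cells only. The male KO list held 9.2 kb at chr6:49159601-49168800 on 986 reads and 9.0 kb at chr2:174117201-174126200 on 623 reads. Both lay in WT H3K27me3, over 9.2 and 8.8 kb, and both had H3K27ac in male KO cells and in no other.

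The other marks of each line sorted the H3K4me3 regions by width as well. H3K27ac regions of the same line overlapped 99.7% of the broad regions in female KO cells, 100% in male KO cells and 99.7% in WT. They overlapped 38.7% of the narrow regions in female KO cells, 41.0% in male KO cells and 41.4% in WT. H3K27me3 regions overlapped 34.6% of the narrow regions in female KO cells, 32.3% in male KO cells and 16.3% in WT. Of the broad regions they overlapped 25.2% in female KO cells, 7.85% in male KO cells and 4.06% in WT. The lists of these marks differ in length, which bears on every such share. H3K27ac covered 198 Mb in female KO cells, 145 Mb in male KO cells and 109 Mb in WT, and H3K27me3 329, 238 and 145 Mb. The part of those lengths in the shares was not tested. Signal from different cells of a line and signal from the same cell cannot be told apart in these libraries.

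Regions that only 1 list of the male pair held differed in H3K27 state. Of the male KO regions without a WT partner, 47.0% lay in WT H3K27me3 (45.0 to 48.9%), against 9.45% of those with one. Those without a partner carried H3K27ac in 30.4% of cases in male KO cells and in 10% in WT. Those with a partner did so in 86.5% and 74.9% of cases. H3K27me3 of male KO cells themselves overlapped 54.5% of those without and 13.25% of those with a partner. The difference in WT H3K27me3 held within widths: at 2 to 4 kb, 54.3% of those without and 14.9% of those with a partner lay in it. Of the female KO regions without a WT partner, 20.6% lay in WT H3K27me3, against 9.48% of those with one. Within narrow female KO regions the shares were 19.1% without and 17.2% with a partner, with overlapping intervals, and at 2 to 4 kb 21.6 and 20.02%. At 4 to 6 kb they were 20.6% without (13.99 to 29.2%) and 10.9% with a partner (9.72 to 12.3%), and at 6 to 10 kb 24.1% (14.6 to 37.0%) and 5.13% (4.56 to 5.77%). Of the 11 broad female KO regions without a partner 45.5% lay in WT H3K27me3 (21.3 to 72.0%), against 6.28% of those with one.

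Whether a short WT region had a male KO partner differed by the H3K27 marks of WT. Of the narrow WT regions with H3K27ac and no H3K27me3 in WT, 31.4% had a male KO partner (284 of 904, 28.5 to 34.5%), at a median density of 36.7 reads per kb in WT. Of those with H3K27me3 and no H3K27ac, 90.03% had one (316 of 351, 86.5 to 92.7%), at 39.3 reads per kb. At 2 to 4 kb the shares were 63.5% of 2025 and 98.8% of 501. WT regions with neither mark had a male KO partner in 60.2% of narrow cases and 93.5% at 2 to 4 kb. From 4 kb upward every state with 30 or more regions had a male KO partner in at least 95.6% of cases. In female KO cells the same narrow states had a partner in 23.3% and 50.7% of cases, and at 2 to 4 kb in 54.3% and 81.4%. Regions with neither mark had a female KO partner in 57.8% of narrow cases and 87.6% at 2 to 4 kb, above both of those states.

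In male KO cells the density ratio differed by the H3K27 state of WT within width classes. At the 743 matched loci with H3K27me3 and no H3K27ac in WT, male KO cells had a median of 76.8 reads per kb over 3.4 kb, against 63.7 reads per kb over 2.8 kb in WT. Over these loci together both values were above WT, in a line where the median over all matched loci was below WT for both. The centred log2 ratio was 0.68 (order-statistic 95% interval 0.63 to 0.72). Of these loci, 28.8% were past 2-fold denser and 0 past 2-fold sparser, while 3.38% of all matched loci were past 2-fold denser. The ratio was 0.63 in narrow loci, 0.75 at 2 to 4 kb, 0.53 at 4 to 6 kb and 0.42 at 6 to 10 kb, on 82, 443, 186 and 32 loci. At 6 to 10 kb the ratio was above 0 only after centring. There male KO cells had 100 reads per kb over 5.4 kb, against 111 reads per kb over 6.6 kb in WT. At the 7615 loci with H3K27ac and no H3K27me3 in WT, the male KO ratio was -0.05, with -0.01 in narrow loci and -0.11 in broad loci. At the 1797 loci with neither mark in WT it was 0.20.

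The states lay closer together in female KO cells. At the 743 loci with H3K27me3 and no H3K27ac in WT they had 69.5 reads per kb over 3.2 kb, against 63.7 reads per kb over 2.8 kb in WT, and a centred log2 ratio of 0.04 (-0.01 to 0.10). Of these, 8.21% were past 2-fold denser, beside 1.51% of all matched loci. At the loci with H3K27ac and no H3K27me3 the ratio was 0.00, and at the loci with neither mark 0.04. At 2 to 4 kb it was 0.04 with H3K27me3 alone (-0.02 to 0.13) and -0.18 with H3K27ac alone (-0.22 to -0.15). Whether the separation differs between the KO lines was not tested. At the 285 loci with both marks in WT the female KO ratio was -0.13 and the male KO ratio 0.06.

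**Figure D4:**
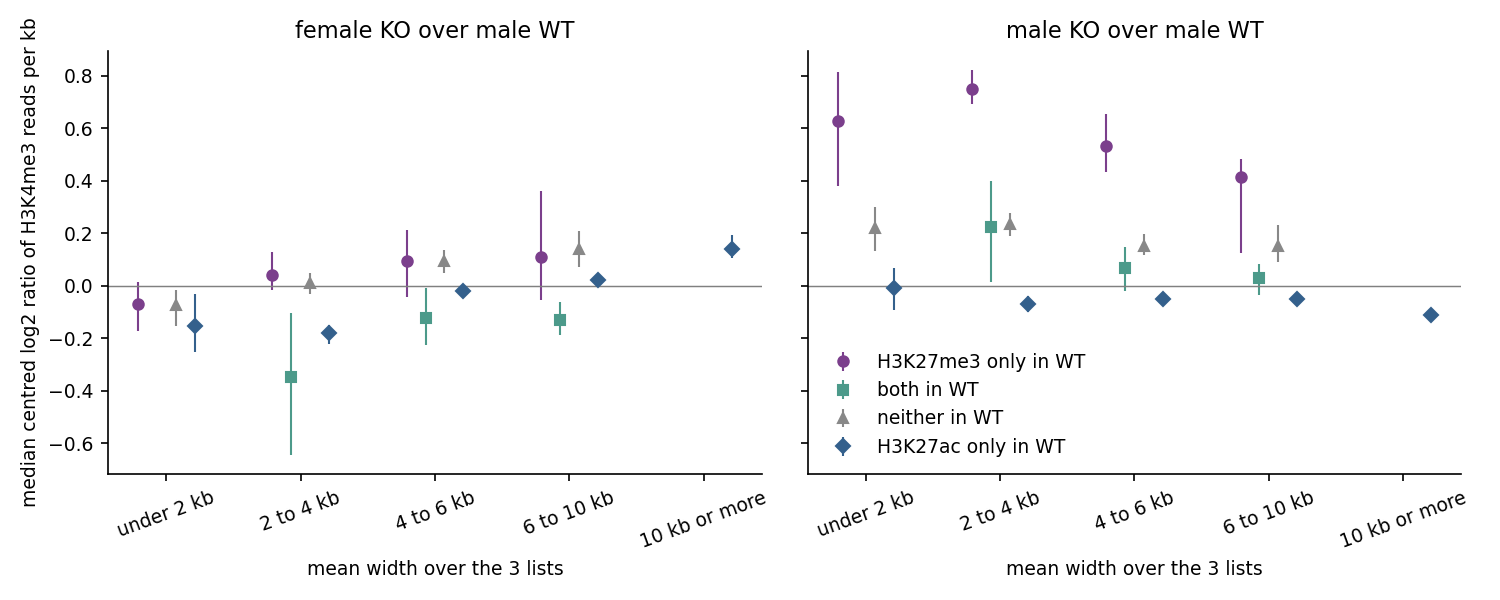
Median centred log2 ratio of H3K4me3 reads per kb at matched loci, female KO over WT (left) and male KO over WT (right), by mean width and by the H3K27 marks that WT carries there. Bars are 95% order-statistic intervals, and classes with under 30 loci are not drawn. In male KO cells the loci with H3K27me3 only lie at 0.42 to 0.75, above every other state of the same width.

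Some shares of the H3K27 marks at loci past 2-fold differed from those over all matched loci, and others did not. At the 353 loci past 2-fold denser in male KO cells, H3K27ac was present at 64.3% in male KO cells (59.2 to 69.1%) and 7.08% in WT (4.84 to 10.2%), and 61.5% lay in WT H3K27me3. Over all matched loci, H3K27ac was present at 87.9% in male KO cells, 85.9% in female KO cells and 75.7% in WT. H3K27me3 was present over all matched loci at 14.1% in male KO cells, 29.6% in female KO cells and 9.85% in WT. Width enters these contrasts: the median mean width was 3.0 kb at the 353 loci and 5.53 kb over all matched loci. Of all matched loci of 2 to 4 kb, 43.1% carried H3K27ac alone in WT, 20.7% H3K27me3 alone and 1.78% both. The part of width was not tested. At the 158 loci past 2-fold denser in female KO cells H3K27ac was present at 81.6% in female KO cells and 22.8% in WT. H3K27me3 was present at 42.4% of these in female KO cells and 38.6% in WT. At the 245 loci past 2-fold sparser in female KO cells, H3K27ac was present at 45.7% in female KO cells and 76.7% in WT. The WT share was near the 75.7% over all matched loci. H3K27me3 was present at 62.4% of these in female KO cells and 18.8% in WT. At the 55 loci past 2-fold sparser in male KO cells, H3K27ac was present at 80% in male KO cells (67.6 to 88.4%) and 94.5% in WT (85.1 to 98.1%). The male KO interval includes the 87.9% over all matched loci. The 250 loci with H3K27ac in WT and not in female KO cells had a centred log2 ratio of -0.65 (-0.74 to -0.58), and 33.2% of them were past 2-fold sparser. H3K27ac was present in WT and not in male KO cells at 139 loci, with a ratio of -0.15. The 1419 loci with H3K27ac in male KO cells and not in WT had a ratio of 0.33.

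Over all widths, the male KO ratio was above 0 at loci with WT H3K27me3 whether or not male KO cells had the mark there. At the 830 loci with H3K27me3 in male KO cells and WT the ratio was 0.45 (0.40 to 0.50), and at the 198 loci with it in WT and not in male KO cells it was 0.52 (0.36 to 0.66). At 2 to 4 kb these ratios were 0.70 and 0.73, against 0.16 for all matched loci of that width. They were smaller at 6 to 10 kb, 0.04 (0.01 to 0.13) on 130 loci and 0.11 (-0.12 to 0.36) on 34 loci. At the 644 loci with H3K27me3 in male KO cells and not in WT the male KO ratio was 0.07. In female KO cells, the 77 loci with H3K27me3 in WT and not in the KO line had a ratio of 0.22 (0.08 to 0.47), and the 951 loci with it in both had -0.04.

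Single autosomes departed from the median in female KO cells. On chromosome 4 the centred log2 density ratio was 0.34 (0.30 to 0.37) over 690 matched loci, and the log2 width ratio 0.50. The second highest autosome was chromosome 14, at 0.17, and the lowest chromosome 5, at -0.15. The other marks of female KO cells stood apart on chromosome 4 too, with centred log2 density ratios of 0.27 for H3K27ac and 0.54 for H3K27me3. These rest on 451 matched loci of H3K27ac and only 32 of H3K27me3. In male KO cells the autosomes ranged from -0.12 on chromosome 1 to 0.15 on chromosome 14. The sources used here do not give the number of copies of each chromosome, and its part in these values was not tested.

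The sign of the width and broad minus narrow values was mostly shared over the autosomes. The female KO region was wider than WT by the median on 19 of 19 autosomes and the male KO region narrower on 19 of 19. Broad minus narrow density was above 0 on 18 of 19 autosomes in female KO cells, the exception being chromosome 12 at -0.01, and below 0 on 19 of 19 in male KO cells. Its size varied, up to 0.74 on chromosome 18 in female KO cells, on 18 narrow and 8 broad loci. In male KO cells it ran from -0.79 on chromosome 15 to -0.12 on chromosome 19. These rest on 14 narrow and 30 broad loci and on 14 narrow and 23 broad loci. The autosomes of a line come from 1 library, so autosomes that share a sign are not replicates. Over all autosomes, the male KO value was 0.04 (-0.20 to 0.35) without the regions with the lowest counts, on 10 narrow matched loci, so its sign was not kept. Chromosome 1 had the lowest share of WT regions with a partner in both comparisons, 74.0% for female KO and 78.6% for male KO, against medians over the autosomes of 82.6 and 87.2%.

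**Figure D5:**
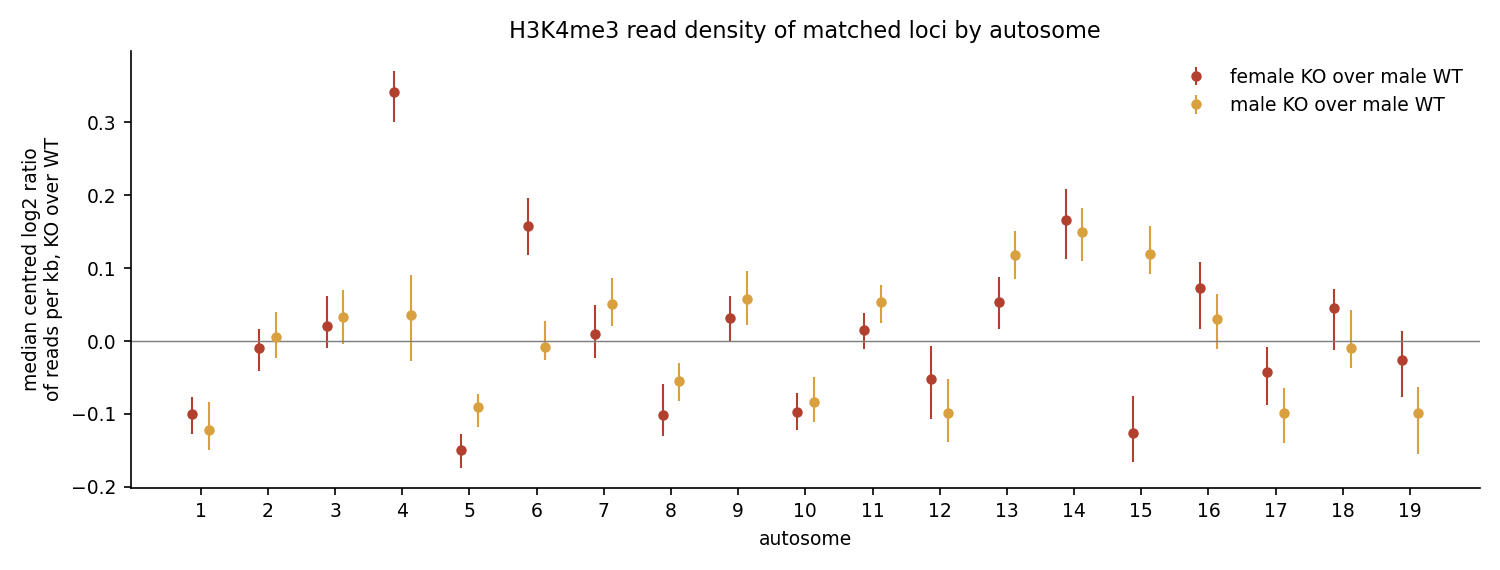
Median centred log2 ratio of H3K4me3 reads per kb at matched loci on each autosome, female KO over WT and male KO over WT, with 95% order-statistic intervals as bars. Chromosome 4 lies at 0.34 in female KO cells and at 0.04 in male KO cells.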

How the data were processed

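The authors' deposited lists, 1 per library, give chromosome, start, end and a whole number per region. Per the submitters' processing notes, Bowtie 1.1.2 and SICER 1 were used on mm9. SICER joins neighbouring enriched 200 bp windows. The last column was taken as the count of reads in a region, from its whole numbers and SICER's format, since the deposited files have no header, and it is the authors' own value. The sources used here do not give the control library, false discovery rate, window settings or total reads. Regions were called in each library separately.

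In Python 3.11.15 (pandas 2.3.3 and numpy 2.4.6 for tables, scipy 1.17.1 for intervals, matplotlib 3.10.9 for figures), width, reads per kb, overlap of at least 1 bp and log2 ratios over matched loci were computed on autosomes, with no filter on low counts. A called change is 2-fold after centring. Regions were named by rule: the 3 widest matched loci, the 3 largest gains and losses of width and of density per KO line (density with at least 100 reads in both lists and 2 kb), the 2 widest unpartnered regions per list and pair, and the 3 densest narrow loci. Members, classes and rules were chosen with earlier results of these data known. The code was tested on simulated lists. Depth enters through reads per region (median 375 to 988 per list), and intervals cover counting error only, since duplicate reads are not independent molecules. Alternatives were stricter, merged and depth-scaled lists, other class borders, other overlaps, other loci and the omission of chromosome 4. Coordinates are 1-based mm9 positions.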

Additional observations from a re-analysis of the deposited data

Results flagged for a closer look

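In 3 measures the KO lines stood on opposite sides of WT. The median region width differed from WT by 1.2 kb in female KO cells and by -1 kb in male KO cells. The share of broad regions differed by 9.48 percentage points in female KO cells and by -3.87 points in male KO cells. The centred log2 ratio of reads per kb, broad minus narrow loci, was 0.24 in female KO cells and -0.30 in male KO cells. Without the 25% of regions with the lowest counts the opposite signs were not kept: the values were 0.28 in female KO cells (-0.10 to 0.64) and 0.039 in male KO cells (-0.20 to 0.35), on 10 narrow matched loci, and both intervals include 0. The difference between the KO lines was not tested, since each line had 1 library, and both comparisons share the WT list. The order of the lines in the first 2 measures was that of their reads in regions.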

How the results depend on the processing

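No paired analysis was possible because each line had 1 library per mark and the labels give no replicate numbers, and no library could be left out for the same reason. Over 14 results, 59 of 78 alternative values moved by no more than their interval or, for counts, by no more than 1.5 times, 18 moved further and 1 changed sign.

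Without the 25% of regions with the lowest counts, the share of broad regions differed from WT by 12.6 points in female KO cells and by -5.16 in male KO cells. Broad minus narrow overlap of WT regions was then 45.4 points for female KO and 23.0 for male KO. Loci past 2-fold numbered 73 denser and 80 sparser in female KO cells and 113 and 24 in male KO cells. The male KO ratio at loci with H3K27me3 only in WT was 0.47, an alternative chosen after seeing the data. Broad minus narrow density of the male KO line changed sign, to 0.039 (-0.20 to 0.35), with 10 narrow matched loci in place of 497. The female KO value was 0.28 (-0.10 to 0.64).

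With regions closer than 1 kb merged, the broad share of the male KO line differed by -4.58 points, and broad minus narrow overlap was 60.6 points for female KO and 43.4 for male KO. With broad as the widest 10% and narrow as the narrowest 25% of WT widths, the broad shares differed by 13.6 points in female KO cells and -5.99 in male KO cells, and broad minus narrow overlap was 49.98 points for female KO and 39.6 for male KO. Overlap for male KO was 43.9 points with depth-scaled lists and 42.7 points when 50% of the WT region had to be covered. The depth-scaled lists drop sparse regions and leave the width of the others as called, so they say nothing about the part of depth in width.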

Other observations

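Regions without a partner differed in how near the other list came. Of the female KO regions without a WT partner, 33.0% lay within 5 kb of a WT region (30.6 to 35.4%), at a median gap of 16.2 kb. Of the male KO regions without a WT partner, 10.1% did (9.003 to 11.3%), at a median gap of 47.4 kb. Of the WT regions without a partner, 15.6% lay within 5 kb of a female KO region and 25.6% within 5 kb of a male KO region. The lists differ in number and width of regions, which bears on these distances, and their part was not tested.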
